A study of Mus musculus with 4 samples.

Results

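The cells described here are conventional CD8 T cells that carried transcripts of both Gzmk, the granule protease granzyme K, and Ccl5, the chemokine RANTES, in the spleens of mice with acute graft-versus-host disease. They were chosen from single-cell RNA counts by a rule. A barcode had to have at least 500 detected genes and at most 10% of its UMIs (unique molecular identifiers, each counting 1 captured transcript) from mitochondrial genes. Antibody counts for CD45.1 over those for CD45.2, each plus 1, had to exceed 2.2 on the log2 scale, which marks the CD45.1 donor. It further had to hold more Cd8a plus Cd8b1 than Cd4 UMIs, no Foxp3 UMI, fewer than 3 Il7r UMIs, at least 1 Gzmk UMI and at least 5 Ccl5 UMIs. The rule found 2805 members among 36140 barcodes past the cell filter and among 11015 conventional CD8 cells. They were set against the 5183 conventional CD8 cells of the same libraries without a Gzmk UMI and under the same limits for Foxp3 and Il7r, which are called Gzmk-negative cells below.

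Recipients were BALB/c mice given 900 cGy of irradiation. All 4 groups received T cell-depleted bone marrow of C57BL/6 mice carrying both CD45.1 and CD45.2, together with Foxp3-GFP+ CD25hi regulatory T (Treg) cells of CD45.2 C57BL/6 mice, and 2 days later wild-type CD45.1 C57BL/6 conventional CD4 and CD8 T cells. The groups differed in the Treg cells alone, which were CD226+/+ TIGIT+/+ (wild type), CD226-/- TIGIT+/+ (CD226 knockout), CD226+/+ TIGIT-/- (TIGIT knockout) or CD226-/- TIGIT-/- (double knockout). The CD8 cells described here are therefore wild type in every library, and a library is named by the Treg cells its mice received. Living donor T cells, positive for H-2Kb and TCRb, were sorted on day 8, and each library was a pool of 3. Each genotype had 1 library. Wild type and CD226 knockout were labelled lane 3 and TIGIT knockout and double knockout lane 4, so lane and TIGIT status cannot be told apart. The labels give no ages.

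Granzymes are serine proteases that killer lymphocytes store in granules and release, with the pore-forming protein perforin, at contact with a target cell. Granzyme K is a tryptase made by a subset of effector and memory CD8 T cells, and its gene is a neighbour of the gene of the other tryptase, granzyme A. Ccl5 draws T cells and monocytes, and antigen-experienced CD8 T cells keep its transcript in store. Eomes and T-bet (Tbx21) are T-box transcription factors of the effector and memory programme, whereas Tcf7, Id3 and Ccr7 belong to naive and stem-like memory cells.

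The members numbered 667 in the wild-type, 595 in the CD226-knockout, 363 in the TIGIT-knockout and 1180 in the double-knockout library. Their summed UMIs ranged from 4019200 to 14009710 per library. Their median depth was 11914, 9131, 9098 and 10276.5 UMIs per cell in that order of libraries, against 10742, 9522, 8093 and 8783.5 in Gzmk-negative cells. Between 16 and 27 filtered barcodes were shared by a pair of libraries, and 0 members were. In bulk sums such as those used below, more cells with a transcript and more transcript per cell cannot be told apart.

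The rule fixes the values of its own genes, which are a description without a test. Gzmk reached 317, 322, 280 and 320 CPM (UMI counts of a gene scaled to the total of its class and library) in the members, with libraries always given in the order of the genotypes above, and a member held a median of 4, 3, 3 and 3 Gzmk UMIs. Ccl5 reached 2090, 2721, 1778 and 2368 CPM against 313, 351, 230 and 500 CPM in Gzmk-negative cells. Just inside the limits lay 631 members with 1 Gzmk UMI and 312 with 5 or 6 Ccl5 UMIs. Just outside lay 422 Gzmk-positive cells with 3 or 4 Ccl5 UMIs and 59 cells with 3 Il7r UMIs. Thinned to 4000 UMIs, 69.8%, 73.0%, 73.5% and 71.6% of the members themselves kept a Gzmk UMI. Gzmk-negative cells may therefore include cells that express Gzmk without a captured UMI. Cd8b1 was at 669 to 835 CPM and Cd4 at 17.4 to 32.1 CPM in members, a gap that the rule itself requires. The lectin-like receptors Klrk1 (NKG2D) and Klrd1 (CD94), which mark the label, were in both classes. Klrd1 averaged 285 ± 54.3 CPM (SD, n = 4) in members and 279 ± 42.5 in Gzmk-negative cells. Klrk1 averaged 240 ± 54.5 and 189 ± 43.4 CPM. For both genes the ranges over libraries overlapped. Cells are not replicates, so the shares of cells that follow, after thinning to 4000 UMIs, are a description too. A Klrk1 UMI was in 40.6%, 56.4%, 52.3% and 55.5% of members. The share was lower in Gzmk-negative cells of each library, at 32.3%, 46.1%, 39.6% and 47.2%. A Klrd1 UMI was in 51.5%, 67.3%, 58.4% and 50.4% of members and 48.1%, 56.1%, 50.7% and 55.9% of Gzmk-negative cells, higher in 3 libraries and lower in the double-knockout library.

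Gzmk, Gzma and Esm1 lie together on chromosome 13 of the mouse (GRCm38, GENCODE M21). Gzmk spans chr13:113171608-113225908 on the minus strand and Gzma chr13:113093825-113100981 on the same strand, 70.6 kb away. Esm1, which encodes the secreted proteoglycan endocan, spans chr13:113209659-113218098 on the plus strand, inside an intron of the longest of 3 Gzmk transcripts on the opposite strand, an overlap of 8.44 kb with that gene model. Whether the counting used strand is not given in the sources used here, so the Esm1 counts are uncertain. Gzma and Esm1 were high in the members (below), where Gzmk is high by the rule. The 250 bases before the RefSeq start of each gene (GRCm38.p6) are printed. They run 5′ to 3′ on the gene's strand, with capitals for GGTGT, the core bound by T-box factors such as Eomes, or its reverse complement.
Gzmk, chr13:113180966-113181215, minus strand: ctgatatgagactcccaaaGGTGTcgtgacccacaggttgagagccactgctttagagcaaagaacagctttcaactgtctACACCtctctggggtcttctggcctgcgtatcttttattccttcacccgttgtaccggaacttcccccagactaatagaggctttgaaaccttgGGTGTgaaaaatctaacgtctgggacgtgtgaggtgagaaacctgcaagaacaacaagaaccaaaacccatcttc
Gzma, chr13:113100982-113101231, minus strand: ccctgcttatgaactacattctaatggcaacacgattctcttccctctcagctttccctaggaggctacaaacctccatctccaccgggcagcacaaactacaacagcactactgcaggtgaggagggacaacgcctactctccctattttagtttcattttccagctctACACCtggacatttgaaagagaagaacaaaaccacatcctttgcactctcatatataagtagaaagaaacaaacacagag
Esm1, chr13:113209409-113209658, plus strand: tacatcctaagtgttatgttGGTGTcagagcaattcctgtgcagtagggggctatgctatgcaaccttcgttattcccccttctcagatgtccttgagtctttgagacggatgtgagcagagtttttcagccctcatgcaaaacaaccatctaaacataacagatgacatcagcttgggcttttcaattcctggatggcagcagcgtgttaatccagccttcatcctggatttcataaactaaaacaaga
The core occurred 3 times before Gzmk and once before Gzma and Esm1 on either strand, and 36.2% of all 32851 windows of this length held it. The longer form GGTGTGA, which contains the core, occurred 1 time before Gzmk and in 3.33% of all windows. TGTGGT, bound by RUNX factors, occurred 1 time before Gzma and in 14.05% of all windows. The GC box core GGGCGG occurred 0 times before the 3 genes and in 32.7% of all windows. A match describes letters and not a bound site. As a check of the starts, the end of each reference sequence, past the start, was searched in the GENCODE transcripts. It was found in 2 of 2 Gzma and 1 of 1 Esm1 transcripts, but in 0 of 3 Gzmk transcripts. The Gzmk start was thus not matched to a GENCODE transcript.

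Members made up 31.8% of conventional CD8 cells in the wild-type library (exact binomial 95% interval 29.8 to 33.8%) and 22.9% (21.3 to 24.5%) in the CD226-knockout library. They made up 12.5% (11.3 to 13.8%) in the TIGIT-knockout and 34.6% (33.0 to 36.2%) in the double-knockout library. The share was thus lowest with TIGIT-knockout Treg cells and highest with double-knockout Treg cells, whose interval overlapped that of the wild type. Trdc, the delta chain constant gene of the T cell receptor and a marker of gamma-delta T cells, had a UMI in 3, 1, 16 and 194 members. Without cells carrying a Trdc UMI, an alternative chosen after seeing the data, the shares were 31.8%, 22.9%, 12.3% and 31.1%, so the double-knockout share was no longer the highest. After thinning each cell to 4000 UMIs the shares were 17.1%, 13.3%, 6.70% and 18.3%, with the libraries ranked as in the full counts of all cells. The median depth of conventional CD8 cells was also lowest in the TIGIT-knockout library, at 8887 UMIs, and highest in the wild-type library, at 11901 UMIs. The same rule with Cd4 above Cd8 found 4.33%, 4.26%, 1.29% and 4.44% of conventional CD4 cells, again lowest in the TIGIT-knockout library. The intervals cover counting error only. With 1 library per genotype there is no replicate check, and no test between genotypes was made.

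Treg-donor cells were used as a guide to the level that free RNA can give. Whether they express these genes themselves was not tested, so their values are not a reading of free RNA alone. In Treg-donor cells with a Foxp3 UMI, 2.04 to 6.67% of 35 to 49 cells per library had a Gzmk UMI at median depths of 4323 to 6947 UMIs. In conventional CD8 cells the share was 55.8%, 48.6%, 36.3% and 56.1% at median depths of 8887 to 11901 UMIs. Thinned to 4000 UMIs, the CD8 shares were 36.3%, 31.4%, 23.1% and 37.4%, against 0 to 7.14% of 26 to 40 Treg-donor cells. At least 5 Ccl5 UMIs were in 12.2%, 6.67%, 8.70% and 22.9% of the Treg-donor cells, highest in the double-knockout library, which also had the highest member share, and in 41.4%, 33.6%, 20.4% and 46.2% of conventional CD8 cells. Thinned to 4000 UMIs, at least 5 Ccl5 UMIs were in 5%, 3.33%, 0% and 14.3% of Treg-donor cells. The part of free RNA in the member shares was not tested. A share of 0 of 26 cells limits cells with a UMI and not cells that express the gene.

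**Figure D1:**
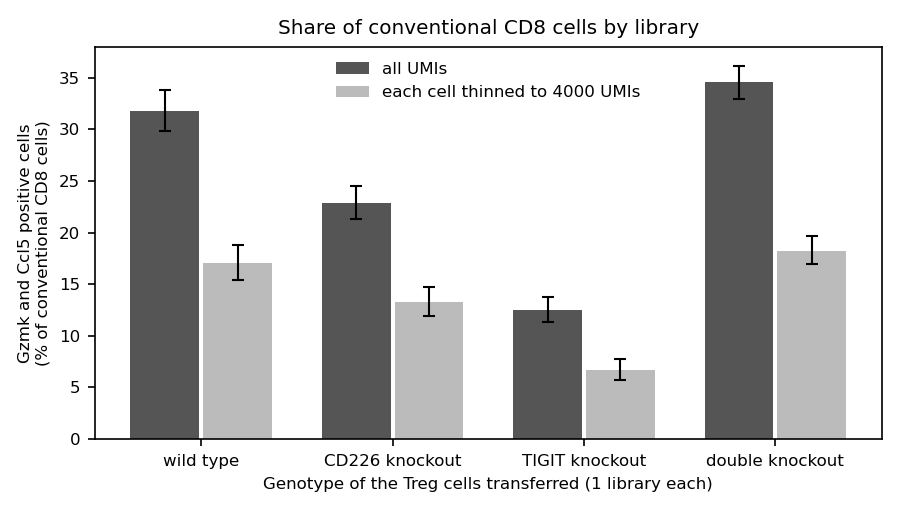
Share of conventional CD8 cells that carried Gzmk and Ccl5 by the rule (y axis, percent) in each of the 4 libraries (x axis), from all UMIs (dark bars) and after thinning each cell to 4000 UMIs (light bars), with exact binomial 95% intervals. The TIGIT-knockout library had the lowest share on both scales, 12.5% and 6.70%.

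Relative to Gzmk-negative cells of the same library, the members were richer in transcripts of Gzma, Eomes, Klrg1, Ctla2a, Esm1 and Ly6c2 and poorer in Ifitm2, Nrp1, Tcf7, Id3 and Il2ra. Of 10461 genes tested over the 4 libraries, 845 were higher (8.08%) and 827 lower (7.91%) in members. The counts for gene lists below are to be read against these 2 shares. At least 1.5-fold changes numbered 151 higher (1.44%) and 163 lower (1.56%). The test was edgeR's quasi-likelihood F-test on summed counts with the library as a block and Benjamini-Hochberg adjustment, called at an adjusted p of at most 0.05. Each value after ± is an SE taken as the size of the log2 fold change over the square root of F, and n = 4 libraries. Without the library as a block, 335 and 219 genes were called, and DESeq2 called 376 and 294. Leaving out the wild-type library left 597 higher and 534 lower genes, and leaving out the CD226-knockout library left 604 and 491. The genes of the rule and the label markers are not among these counts. Gzmk-negative cells also held less Ccl5 by construction, so a difference can go with either gene.

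**Figure D2:**
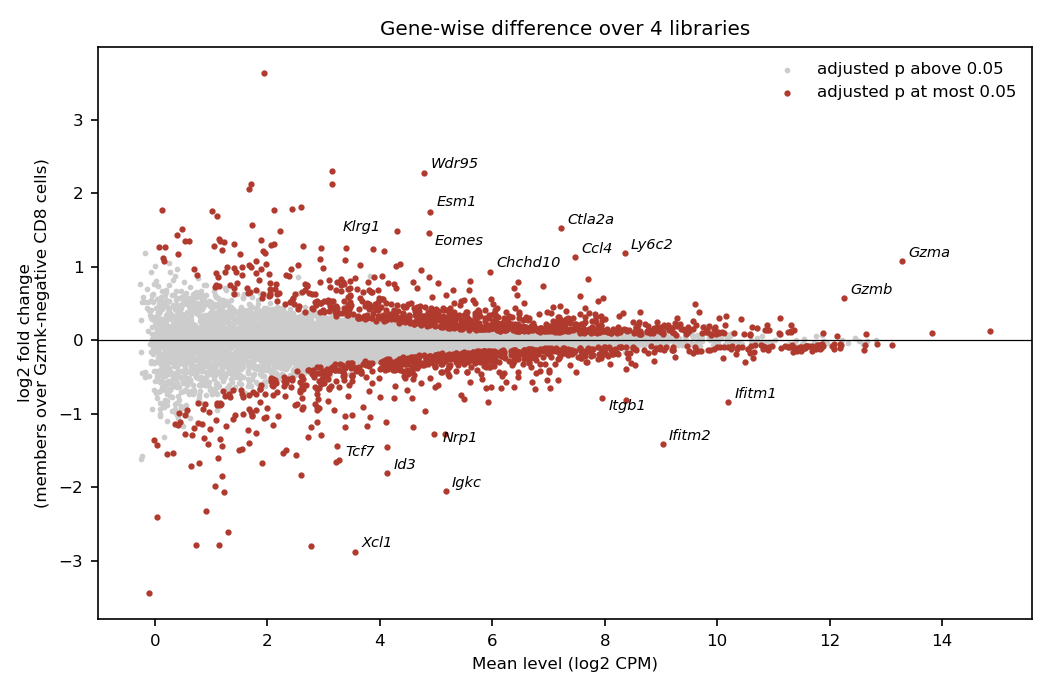
Log2 fold change of members over Gzmk-negative conventional CD8 cells (y axis) against mean level in log2 CPM (x axis) for the genes tested, without the genes of the rule and the label markers. Red points passed the test, and Gzma and Gzmb stand out at the right with log2 fold changes of 1.07 and 0.57.

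Granule genes came first among the high-abundance differences. Of 13 granzyme and granule genes tested, 6 were higher and 3 lower, with a median log2 fold change of 0.06 against -0.0037 over all genes. Gzma reached 13008, 13337, 13075 and 14332 CPM in members and 5853, 6316, 7222 and 6495 CPM in Gzmk-negative cells. Every member value lay above every Gzmk-negative value, and the log2 fold change was 1.07 ± 0.03 (edgeR adjusted p = 4e-12). Gzmb, the aspartate-cutting granzyme, reached 5700, 4991, 5767 and 6794 CPM against 4268, 3468, 3868 and 4172 CPM. The Gzmb ranges did not overlap either, and the log2 fold change was 0.57 ± 0.03. Perforin (Prf1) was at 205, 220, 244 and 253 CPM against 171, 169, 148 and 130 CPM, a log2 fold change of 0.60 ± 0.08, with the smallest gap in the wild-type library. Nkg7, a granule membrane protein, rose by 0.30 ± 0.02. Gzmc, a granzyme near Gzmb, went the other way, at 3.48 to 5.71 CPM against 9.11 to 19.7 CPM (-1.43 ± 0.18). The granule proteoglycan serglycin (Srgn) and Lamp1 were also lower, and Gzmm, Cst7, Ctsw and Ctsc were not called.

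Among the transcription factors, Eomes led. Eomes was at 44.8, 42.4, 39.3 and 53.7 CPM in members and at 16.4, 14.8, 14.6 and 20.2 CPM in Gzmk-negative cells, a log2 fold change of 1.46 ± 0.06 (adjusted p = 1.3e-10). The lowest member value was thus above the highest Gzmk-negative value. Its T-box relative Tbx21 was at 61.2 to 69.2 against 66.8 to 76.97 CPM and was not called (-0.10 ± 0.04, adjusted p = 0.16). Zeb2, a transcriptional repressor, was at 9.21 to 16.6 against 5.63 to 7.28 CPM (0.82 ± 0.16). Of the 19 effector and exhaustion factors tested, 5 were higher (Eomes, Zeb2, Prdm1, Irf8 and Hopx) and 1, Batf, was lower. Tox, linked to exhaustion, was not called (adjusted p = 0.85), but without the wild-type library, where it was lower in members (17.6 against 28.3 CPM), its log2 fold change was 0.24 (adjusted p = 0.047).

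Genes of naive and memory cells were mostly lower in members. Of 13 tested, 8 were lower and 4 higher, with a median log2 fold change of -0.49. Tcf7 (TCF-1) was at 4.14, 4.56, 6.72 and 3.64 CPM in members and 19.2, 12.5, 8.21 and 13.8 CPM in Gzmk-negative cells (-1.63 ± 0.19). Id3, an inhibitor of E proteins in memory precursors, was at 5.64 to 8.24 against 21.4 to 30.0 CPM (-1.81 ± 0.12). For both genes the groups did not overlap, although in the TIGIT-knockout library the Tcf7 values lay closest together. Ccr7 and Dapl1 fell by 2.79 and 2.80, from 1.44 to 3.41 and 5.21 to 14.3 CPM in Gzmk-negative cells. Lef1, Foxo1, Klf3 and Actn1 were the members of the list that were higher, Klf3 by 0.69 ± 0.08.

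**Figure D3:**
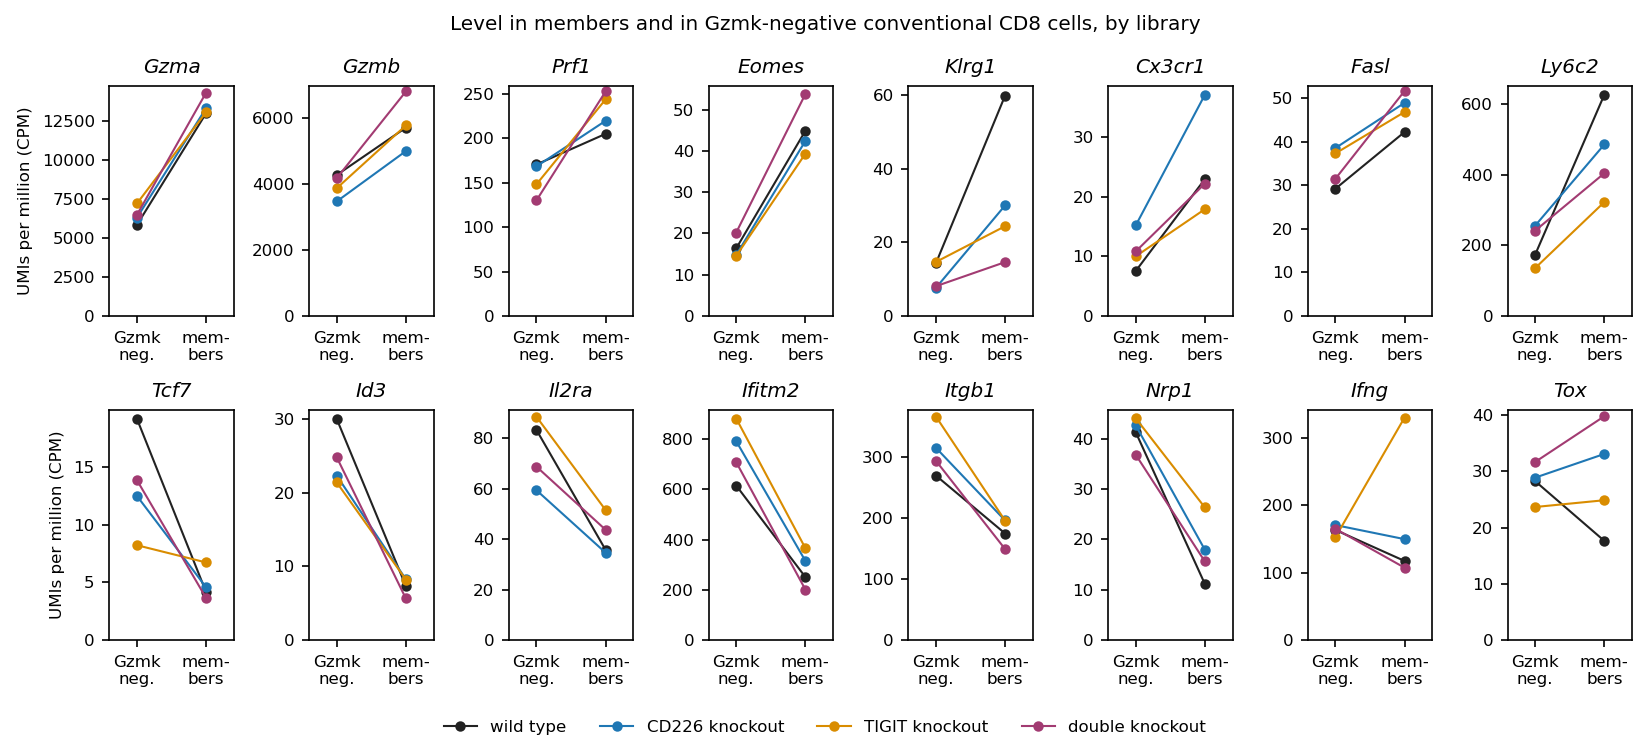
Level in CPM (y axis, from 0) of 16 genes in Gzmk-negative cells (left) and members (right), with 1 line for each of the 4 libraries. Gzma rose and Ifitm2 fell in all 4 libraries, while the Ifng lines crossed.

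NK-type receptors rose in part. Of 9 NK-type receptors and adaptors tested, 6 were higher (Klrg1, Klre1, Klra3, Klra7, Hcst and Tyrobp) and 1, Ncr1, was lower. Klrg1, an inhibitory receptor of terminal effector cells, was at 59.8, 30.0, 24.4 and 14.6 CPM in members and 14.4, 7.67, 14.7 and 8.10 CPM in Gzmk-negative cells. It was higher in members in each library (1.48 ± 0.17), but the ranges over libraries overlapped, since the double-knockout members stood lowest. Klre1 was at 26.0 to 47.0 against 16.9 to 25.5 CPM (0.95 ± 0.09). Klrc1 (NKG2A), the usual partner of CD94, was at 182 to 250 against 201 to 270 CPM and was not called (adjusted p = 0.63).

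Of 5 chemokines made by T cells, 2 were higher (Ccl3 and Ccl4) and 2 lower (Xcl1 and Cxcl10). Ccl4, a chemokine of the same CC family as Ccl5, was at 211, 294, 325 and 199 CPM in members and 131, 92.5, 115 and 126 CPM in Gzmk-negative cells (1.13 ± 0.12). In the library with the highest member level, 5 cells held 44% of the Ccl4 UMIs of the members. Ccl3 was called (0.71 ± 0.18, adjusted p = 0.011), but not without the CD226-knockout or the TIGIT-knockout library (adjusted p = 0.11 for both). Xcl1, which draws cross-presenting dendritic cells, was at 0.25 to 3.57 against 8.56 to 27.2 CPM (-2.88 ± 0.30), and 5 cells held 82% of its UMIs in the richest Gzmk-negative sum. Among 10 chemokine receptors, 4 were higher, among them Ccr2, Cxcr3 and Cx3cr1, and 3 lower (Ccr7, Ccr9 and Cxcr6). Cx3cr1, a receptor of long-lived effector cells, was at 17.9 to 37.1 against 7.55 to 15.2 CPM (1.21 ± 0.10). Cxcr6, a receptor of tissue-resident cells, was at 201 to 266 against 265 to 326 CPM (-0.32 ± 0.03), with ranges that met at their ends.

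Of 15 cytokines and death ligands, 4 were higher and 5 lower. Fasl, the ligand of the death receptor Fas, was at 42.2 to 51.6 against 29.2 to 38.5 CPM (0.51 ± 0.07). Ifng was at 117, 150, 330 and 107 CPM in members and 163, 170, 152 and 165 CPM in Gzmk-negative cells and was not called (adjusted p = 0.96). The TIGIT-knockout library was the one in which members were higher, with 48% of its UMIs in 5 cells, and without it Ifng was lower in members by a log2 fold change of -0.42 (adjusted p = 0.0011). Il10 was higher (1.79 ± 0.27) at 5.71 to 16.6 against 1.94 to 3.44 CPM, with 69% of its UMIs in 5 cells of the richest library. Il2ra, the high-affinity IL-2 receptor chain, was at 35.7, 34.6, 51.5 and 43.7 CPM against 83.2, 59.4, 88.5 and 68.7 CPM (-0.84 ± 0.07), and the ranges did not overlap.

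Of 4 CD226 family genes tested, none was higher and 2 were lower. Crtam was at 6.38 to 10.3 against 14.2 to 20.4 CPM (-1.05 ± 0.13). Cd226 itself, an activating receptor, was at 84.8 to 93.6 against 93.5 to 107 CPM, and its call (-0.16, adjusted p = 0.036) was lost without the CD226-knockout (0.11) or the double-knockout library (0.30). Tigit was at 1.49 to 2.80 CPM in members, too low to separate from 1.15 to 1.94 CPM in Gzmk-negative cells (adjusted p = 0.10). Of 11 genes in the list of inhibitory receptors, 1 was higher (the ectoenzyme gene Entpd1, by 0.86 ± 0.10) and 3 lower (Pdcd1, Cd160 and Cd200r1). Pdcd1 (PD-1) was at 88.3, 124, 123 and 149 CPM against 159, 172, 139 and 142 CPM. The double-knockout library alone had members above Gzmk-negative cells, and the Pdcd1 call (-0.32, adjusted p = 0.026) was lost without the wild-type (0.16), CD226-knockout (0.17) or TIGIT-knockout library (0.059). Lag3 and Havcr2 were not called (adjusted p = 0.63 and 0.17).

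Ifitm2, an interferon-induced transmembrane gene, was at 251, 315, 366 and 201 CPM in members and 615, 791, 882 and 708 CPM in Gzmk-negative cells (-1.42 ± 0.06, adjusted p = 3.6e-10). Its neighbours on chromosome 7, Ifitm1 and Ifitm3, fell by 0.84 and 0.82. These genes did not follow the wider interferon list, in which 5 of 17 genes were higher and 1 lower. Ly6c2, a surface marker of effector and memory CD8 cells, led that list at 626, 485, 322 and 404 CPM against 174, 256, 136 and 242 CPM (1.19 ± 0.11). Itgb1, the integrin beta-1 chain, was at 149 to 196 against 269 to 366 CPM (-0.78 ± 0.05) while Itga4, the integrin alpha-4 chain, rose by 0.34 ± 0.04. Nrp1, a co-receptor for semaphorins, was at 11.2 to 26.4 against 36.9 to 44.1 CPM (-1.27 ± 0.11). In all, 6 of 14 adhesion, homing and egress genes were higher and 3 lower, and S1pr1, the egress receptor, was higher by 0.21 with an adjusted p of 0.0069 that rose to 0.056 without the CD226-knockout library.

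Further high genes were Wdr95, a WD-repeat gene, Ctla2a, a cathepsin inhibitor-like gene, Lrrk1, a kinase, Lpin1, a lipid phosphatase, and Chchd10, a mitochondrial protein. Wdr95 was at 55.8, 65.7, 25.9 and 51.7 CPM against 6.26, 13.8, 7.19 and 13.4 CPM, the largest log2 fold change among genes of at least 20 CPM (2.28 ± 0.13). Ctla2a was at 209, 235, 193 and 273 CPM against 64.5, 82.5, 76.6 and 96.6 CPM (1.53 ± 0.05). Esm1, with the strand caveat above, was at 46.7, 37.5, 46.3 and 62.7 CPM against 13.99, 11.5, 16.1 and 16.9 CPM (1.74 ± 0.07). None of these ranges overlapped. Further low genes were Nrgn, Lgals7, Rgs10, Inpp4b and Ahr, with log2 fold changes from -1.28 to -0.78. Igkc, an immunoglobulin light chain, had the lowest log2 fold change among genes of at least 20 CPM (-2.06), but 5 cells held 95% of its UMIs in the richest Gzmk-negative sum. Without cells above the 95th percentile of UMIs or with an Xist UMI it was higher in members (0.76).

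Cycling genes were in most cells of both classes. After thinning to 4000 UMIs, 84.2%, 76.8%, 85.2% and 84.7% of members had a UMI of Mki67, Top2a or Cdk1, against 79.5%, 78.4%, 82.1% and 75.5% of Gzmk-negative cells. Mki67 was not called (0.08, adjusted p = 0.082), and 6 of 21 proliferation genes were higher and 1 lower. Of 16 genes of the T cell receptor complex and its proximal signalling, 6 were higher and none lower. Of 14 glycolysis and mTORC1 genes 1 was higher and 4 lower. Of 13 S100, galectin and cytoskeleton genes 8 were higher and 3 lower. Of 11 costimulatory receptors 1 (Cd27) was higher and 4 lower, of 13 cytokine receptors 3 were higher and 3 lower, and of 12 apoptosis genes 3 were higher and 2 lower. None of 6 stress genes was higher and 1 was lower. Over all genes tested, 8.08% were higher and 7.91% lower. The higher shares of the glycolysis list (7.14%) and of the costimulatory receptors (9.09%) were near the share over all genes.

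Markers of other cells were found in both classes, and the sums of those of B cells and of helper cells were lower in members. The summed B and plasma cell markers ranged from 59.2 to 89.8 CPM in members and 108 to 142 CPM in Gzmk-negative cells, without overlap, with 1 of 2 tested genes (Ighm) lower and the defining gene Ms4a1 at 0 in members. Macrophage and dendritic cell markers summed to 223 to 234 CPM and 203 to 233 CPM, with 1 of 9 higher and 1 lower. NK cell markers summed to 81.6 to 123 CPM and 99 to 169 CPM, with 1 of 4 higher and 2 lower, and helper and Treg markers to 139 to 215 CPM and 196 to 273 CPM, with 0 of 7 higher and 4 lower. Neutrophil markers reached 136 CPM in wild-type members and 141 CPM in TIGIT-knockout Gzmk-negative cells against 3.49 to 6.64 CPM elsewhere, and 5 cells held 99% of the S100a8 UMIs of the wild-type members. Gamma-delta and NKT cell markers summed to 9.99, 16.3, 20.2 and 52.0 CPM in members, highest in the double-knockout library, and to 9.21 to 15.6 CPM in Gzmk-negative cells. Of 4 tested, 2 were higher (Trdc and Tcrg-C2), with Sox13 and Trdv4 at 0 in members. Trdc was at 0.319, 0.147, 5.22 and 43.97 CPM in members against 0.552, 0.387, 3.06 and 5.45 CPM in Gzmk-negative cells. It was thus lower in members of the wild-type and CD226-knockout libraries, and the gap was widest in the double-knockout library. Erythroid markers summed to 20.2 to 37.5 CPM and 18.8 to 34.6 CPM, and 0 of 4 were called. The part of such transcripts in the differences was not tested, apart from the values without high-UMI cells.

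Gzmk and Ccl5 did not mark the same differences. When the Gzmk-negative cells were limited to the 873 with at least 5 Ccl5 UMIs, 129 genes were higher (1.42% of 9061) and 162 lower (1.79%) in members. Eomes (0.75 ± 0.10), Ctla2a (0.77 ± 0.05), Esm1 (1.07 ± 0.10), Wdr95 (1.12 ± 0.11) and Gzma (0.26 ± 0.03) remained higher, and Ifitm2 (-0.97 ± 0.04), Itgb1 (-0.62) and Nrp1 (-0.87) remained lower. Ccl4, Ccl3, Nkg7, Fasl, Zeb2, Klre1 and Il2ra were not called, with log2 fold changes from -0.13 (Klre1) to 0.14 (Ccl4). Klrc1 (-0.25), Lag3 (-0.30) and Id2 (-0.22), not called against all Gzmk-negative cells, were lower. This smaller comparison rests on 1805590 to 3223185 UMIs per library, against 10861569 to 16684394 in all Gzmk-negative cells.

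The same genes can be read in classes by Gzmk and Ccl5, as a description. Gzmk was split into no UMI and at least 1 UMI, and a cell with no UMI may still express it. Ccl5 below 5 UMIs is called low, and at least 5 is called high. Low does not mean absent, since 208 of 710, 347 of 998, 437 of 1535 and 403 of 1067 Gzmk-negative cells with low Ccl5 held at least 1 Ccl5 UMI. Il2ra was at 62.8 to 92.8 CPM in Gzmk-negative cells with low Ccl5, 34.4 to 53.9 CPM in Gzmk-negative cells with high Ccl5 and 53.5 to 83.4 CPM in Gzmk-positive cells with low Ccl5. In each library the last of these lay above the second. Klre1 was at 12.2 to 21.8, 32.3 to 47.9 and 12.5 to 23.2 CPM in that order, highest in Gzmk-negative cells with high Ccl5. Esm1 was at 11.4 to 15.2, 11.99 to 29.5 and 32.5 to 47.6 CPM, highest of these 3 classes in Gzmk-positive cells with low Ccl5. Cd7, a costimulatory glycoprotein, was at 37.3 to 53.0, 55.2 to 105 and 21.8 to 34.6 CPM, highest in Gzmk-negative cells with high Ccl5 and lowest in Gzmk-positive cells with low Ccl5, and lower in members than in Ccl5-matched cells (-0.94).

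**Figure D4:**
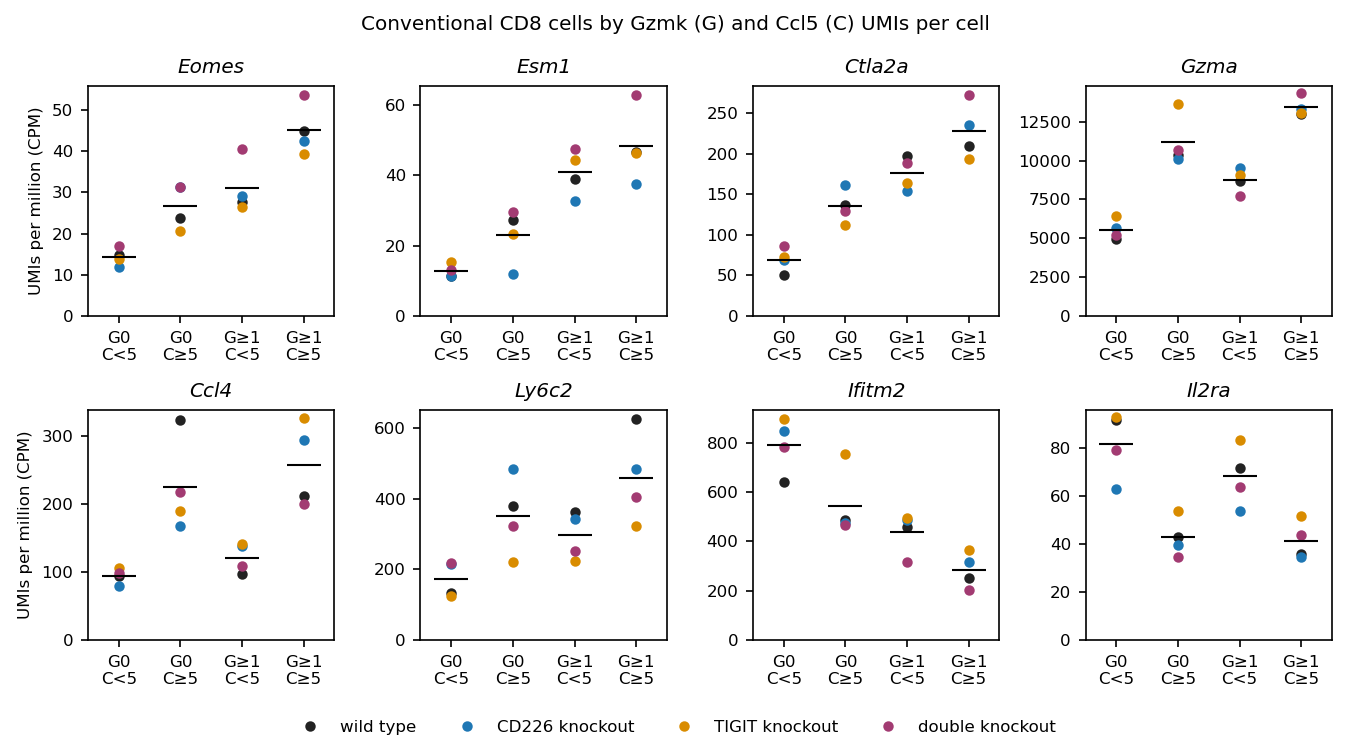
Level in CPM (y axis, from 0) of 8 genes in conventional CD8 cells with 0 or at least 1 Gzmk UMI (G) and below or at least 5 Ccl5 UMIs (C) (x axis). Points are the 4 libraries and bars their means, and members are the class at the right, where Eomes stood at 39.3 to 53.7 CPM.

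Within the members, the levels of several genes varied with the number of Gzmk UMIs per cell. These values are a description, since cells with more Gzmk UMIs were also deeper, with a median of 10622 UMIs at 1 Gzmk UMI and 16136 at 8 or more in the wild-type library. From cells with 1 to cells with 4 to 7 Gzmk UMIs, Eomes went from 40.3 to 42.5 CPM in the wild-type, from 35.9 to 44.2 in the CD226-knockout, from 26.9 to 50.6 in the TIGIT-knockout and from 42.6 to 59.6 in the double-knockout library. Ctla2a went from 137 to 206, 179 to 260, 125 to 249 and 216 to 293 CPM. Ifitm2 went from 375 to 208, 432 to 316, 454 to 309 and 296 to 136 CPM, and Cxcr6 from 238 to 198, 327 to 258, 266 to 228 and 258 to 216 CPM. These 4 genes moved in all 4 libraries in the direction they had between members and Gzmk-negative cells, but other genes did not. Of 39 called genes looked at in this way, 19 kept their direction in all 4 libraries, 17 were mixed, and 3 went the opposite way in all 4, namely Zeb2, Ccl3 and Igkc. Zeb2, higher in members, went from 23.4 to 13.5, 10.8 to 9.95, 15.4 to 12.7 and 8.94 to 8.42 CPM, and Ccl3 from 87.7 to 75.4, 187 to 112, 254 to 45.07 and 77.7 to 55.6 CPM. Cells with 8 or more Gzmk UMIs numbered 14 in the TIGIT-knockout library and are left out of these ranges.

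Conventional CD4 cells chosen by the same rule, 119, 132, 40 and 125 per library, showed some of the same differences at other sizes. Against Gzmk-negative CD4 cells, 813 of 10327 genes were higher (7.87%) and 837 lower (8.1%). The difference between the CD8 and CD4 fold changes was tested as an interaction over the 4 libraries, with 168 genes higher in CD8 (1.56% of 10796) and 123 lower (1.14%). Without the CD226-knockout library 90 and 53 were called, and without the library as a block 34 and 36. Without the TIGIT-knockout library 119 and 72 were called. With Gzmk-negative cells limited to at least 5 Ccl5 UMIs in both lineages, edgeR called 2 and 0 genes, with 450 at an unadjusted p under 0.05.

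Eomes was at 46.1, 38.1, 49.0 and 45.23 CPM in the CD4 cells with Gzmk and Ccl5, close to the level in the CD8 members, but at 3.63, 6.20, 2.65 and 5.13 CPM in Gzmk-negative CD4 cells. Its log2 fold change was therefore larger in CD4 (3.23) than in CD8 cells (1.46), an interaction of -1.78 (adjusted p = 1.1e-05). Prf1 (-1.04), Gzmb (-0.48) and Fasl (-0.77) had larger fold changes in CD4 cells too. Plac8, a cysteine-rich protein of activated T cells, went in opposite directions, at 273 to 320 against 187 to 214 CPM in CD8 cells and 42.3 to 152 against 150 to 217 CPM in CD4 cells (interaction 1.51, adjusted p = 5.2e-06). Gzma, Klrg1, Ly6c2 and Wdr95 had interactions that were not called (adjusted p = 0.25, 0.94, 0.91 and 0.76), which does not show that they were equal.

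**Figure D5:**
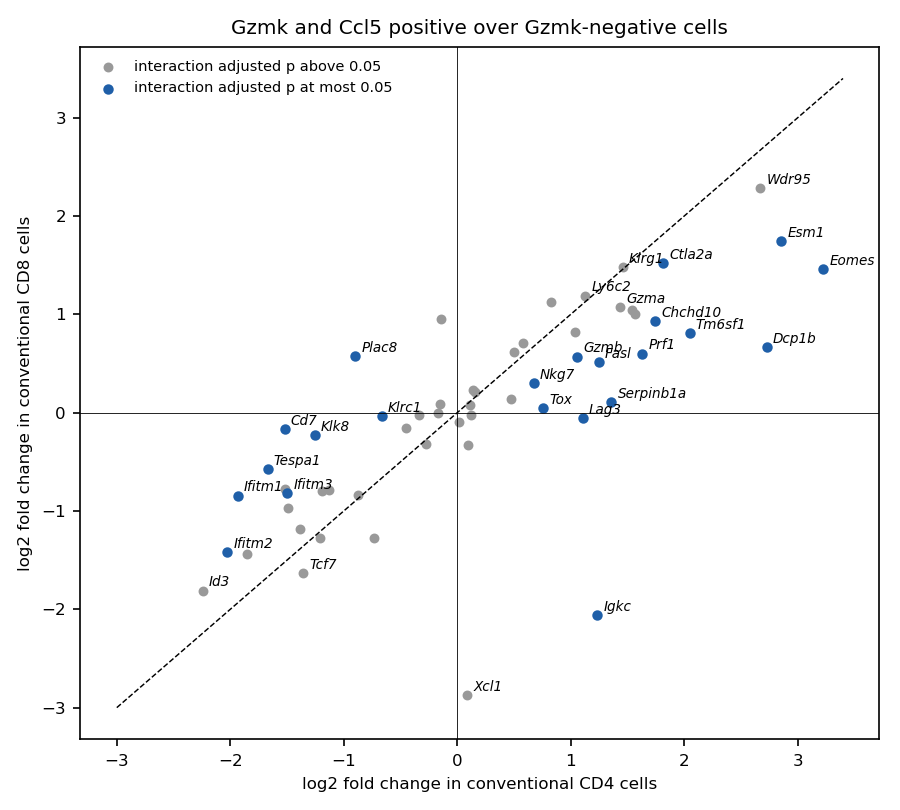
Log2 fold change of Gzmk and Ccl5 positive over Gzmk-negative cells in conventional CD8 cells (y axis) against that in conventional CD4 cells (x axis) for named genes, with the line of equal change dashed. Blue points had an interaction at an adjusted p of at most 0.05; Eomes lay at 3.23 in CD4 and 1.46 in CD8 cells.

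Between genotypes, members are described by ratios with intervals that cover counting error only. Among 4996 genes of at least 20 CPM, 22 were past 1.5-fold higher (0.44%) and 10 lower (0.2%) in CD226 knockout over wild type, and 16 (0.32%) and 23 (0.46%) in double knockout over TIGIT knockout. For TIGIT knockout over wild type the numbers were 16 (0.32%) and 13 (0.26%), and for double knockout over CD226 knockout 8 (0.16%) and 19 (0.38%). The direction agreed between both CD226 contrasts, which share no library, for 54.3% of 2717 genes with a mean of 50 CPM or more, and between both TIGIT contrasts for 46.4%.

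With CD226-knockout Treg cells, the calcium-binding protein gene S100a4 was higher in both contrasts. It was at 939, 1452, 1030 and 1394 CPM in members, with ratios of 1.55 (95% interval 1.503 to 1.592) and 1.35 (1.308 to 1.399), and Gzmk-negative cells had ratios of 1.51 and 1.42. Rsrp1, an arginine/serine-rich protein gene, had ratios of 1.29 and 1.51 in members and 1.31 and 1.65 in Gzmk-negative cells, Itga4 had 1.35 and 1.37 against 1.16 and 1.26, and Il18r1, the IL-18 receptor chain, had 1.34 and 1.24 against 1.27 and 1.13. Gm26740 was named by the same rule. These ratios were thus in the same direction in cells outside the rule. Ass1, argininosuccinate synthase, had the lowest pair of ratios with 0.727 and 0.619, with Nop56, Nop58 (box C/D nucleolar proteins), Gstp1 and Mogs lower as well.

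With TIGIT-knockout Treg cells, Pdcd1 had ratios of 1.39 (TIGIT knockout over wild type) and 1.21 (double knockout over CD226 knockout) in members, but 0.872 and 0.828 in Gzmk-negative cells. Arf6, Madd, Dnajc21 and Sh3bgrl were the other genes named as higher, and Gstp1, Klf3, Ifi47 and Pdlim1 as lower with Ly6c2, which had ratios of 0.515 and 0.832 in members and 0.781 and 0.944 in Gzmk-negative cells. Klrg1 in members was lower in all 4 contrasts, with ratios of 0.502, 0.600, 0.408 and 0.487 for CD226 knockout over wild type, double over TIGIT knockout, TIGIT knockout over wild type and double over CD226 knockout. In Gzmk-negative cells the Klrg1 ratios in the same order were 0.534, 0.552, 1.02 and 1.06, so the lower level with CD226-knockout Treg cells was present there too.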

How the data were processed

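The deposited files hold UMI counts per gene and antibody for each barcode, made by the authors with Cell Ranger 3.1.0 against mm10, per the submitters' processing notes. Counts were summed over the cells of a class in each of 4 libraries (Python 3.11.15) and tested in R 4.3.3 with the quasi-likelihood functions of edgeR 4.0.16 (filterByExpr for low counts, TMM scaling, the library as a block because both classes of a library come from the same pool, Benjamini-Hochberg adjustment, adjusted p of at most 0.05). DESeq2 1.42.0 was an alternative. A library may be a technical unit as much as a biological one, so p-values measure the spread between these 4 libraries. On simulated counts the test recovered 82% of 1.5-fold and 97.9% of 2-fold changes in members over Gzmk-negative cells, with 6 false of 187 calls among 10469 genes. For the interaction it recovered 34% of 1.5-fold and 82% of 2-fold changes, with 5 false of 154 calls among 10804 genes. All simulated libraries shared the same gene profile, with the same fixed dispersion for every gene and no library effects. These rates therefore do not describe the test under the real spread between the libraries. Thinning drew 4000 UMIs per cell without replacement, leaving out 50, 96, 191 and 101 shallower conventional CD8 cells. Doublets were not called with a dedicated tool, and an alternative left out cells above the 95th percentile of UMIs or with an Xist UMI. Binomial intervals are exact Clopper-Pearson and ratio intervals exact Poisson.

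The members and the gene lists were chosen with earlier results of these data known. Named genes were the 12 highest and 12 lowest called genes of at least 20 CPM with 1 sign in 4 libraries, a set of genes of known function, the extremes of each list, members of other-cell lists above 50 CPM, the 5 highest and lowest called interactions of at least 20 CPM, and for the genotype ratios the 5 highest and lowest genes of at least 50 CPM by the smaller of both log2 ratios, with under 50% of UMIs in 5 cells. The genes of the rule, Klrk1 and Klrd1 were left out of the counts of calls. Some genes that the rule names are not reported here.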

Additional observations from a re-analysis of the deposited data

Results flagged for a closer look

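The genes below are listed because the fold change of Gzmk and Ccl5 positive over Gzmk-negative cells differed between conventional CD8 and CD4 cells by the interaction test (edgeR, adjusted p of at most 0.05). Each value is the CD8 minus the CD4 log2 fold change. It was below 0 for Igkc (-3.25), Dcp1b (-2.08), Eomes (-1.78), Serpinb1a (-1.37), Tm6sf1 (-1.24), Lag3 (-1.14), Esm1 (-1.12) and Prf1 (-1.04). It was also below 0 for Fasl (-0.77), Tox (-0.73), Chchd10 (-0.71), Gzmb (-0.48), Nkg7 (-0.37) and Ctla2a (-0.29). It was above 0 for Plac8 (1.51), Cd7 (1.39), Ifitm1 (1.08), Klk8 (1.06), Tespa1 (1.06), Ifitm3 (0.66), Klrc1 (0.61) and Ifitm2 (0.59). Of the first group, Prf1 was at 31.3 to 48.4 CPM in Gzmk-negative CD4 cells and 130 to 171 CPM in Gzmk-negative CD8 cells. For Igkc, 5 cells held 95% of the UMIs in the richest Gzmk-negative CD8 sum.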

How the results depend on the processing

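Against the 845 higher and 827 lower genes, DESeq2 called 376 and 294, the fit with no replicate block 335 and 219, the comparison with Gzmk-negative cells of at least 5 Ccl5 UMIs 129 and 162, cells thinned to 4000 UMIs 514 and 442, and cells without a UMI of Mki67, Top2a or Cdk1 166 and 167 among 5987 genes tested. Leaving out 1 library gave 597 to 692 higher and 491 to 628 lower genes. For the CD8 against CD4 interaction (168 and 123 genes), testing every gene with a UMI gave 291 higher, no replicate block gave 34 and 36, leaving out 1 library gave 90 to 132 and 53 to 90, and at least 5 Ccl5 UMIs in Gzmk-negative cells gave 2 and 0. The member shares were 17.1%, 13.3%, 6.70% and 18.3% after thinning to 4000 UMIs, and 8.76%, 7.37%, 3.25% and 9.28% at 2000 UMIs. With the antibody ratio above 3 they were 35.7%, 26.1%, 14.9% and 36.1%, so the double-knockout and wild-type shares lay close together. Without cells with a Trdc UMI, chosen after seeing the data, the double-knockout share was 31.1%, and 860 genes were higher and 841 lower. Genes past 1.5-fold between genotypes numbered 14, 14, 13 and 7 at a mean of at least 50 CPM, where fewer genes were counted, and 119, 136, 144 and 73 after thinning to 4000 UMIs, in the order of contrasts given with the first counts. These numbers are given without a direction or a share of the genes counted. They are therefore not to be compared with the first counts. With Gzmk-negative cells of at least 5 Ccl5 UMIs the sign turned for Klre1 (-0.13), Igkc (0.14), Il2ra (7.4e-05), Fasl (-0.017), Id2 (-0.22) and Zeb2 (-0.017). It also turned for Igkc (0.76) without high-UMI cells, and for Klrc1 (0.41) and Cd226 (0.14) without cycling cells. The cause was not tested.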

Other observations

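Trdc, Gcg, Gm4208 and Ifngas1 were chosen after their values were seen. Trdc, the constant region of the T cell receptor delta chain, had 616 UMIs in 194 of 1180 members of the double-knockout library, against 3, 1 and 21 UMIs in 3, 1 and 16 members of the wild-type, CD226-knockout and TIGIT-knockout libraries. In Gzmk-negative cells it had 6, 5, 51 and 76 UMIs in 4, 4, 37 and 27 cells. In CPM, Trdc was lower in members than in Gzmk-negative cells of the wild-type and CD226-knockout libraries. Gcg, proglucagon, had 48, 124, 47 and 54 UMIs in 7, 7, 3 and 9 members and 6, 3, 34 and 3 UMIs in 6, 2, 6 and 2 Gzmk-negative cells, so a log2 fold change of 3.64 ± 0.33 (edgeR adjusted p = 2.14e-06) rests on few cells. Gm4208 was spread more widely, with 78, 98, 56 and 338 UMIs in 59, 59, 42 and 188 members against 24, 32, 37 and 98 UMIs in Gzmk-negative cells. Ifngas1, a non-coding RNA beside Ifng, had 50, 59, 28 and 56 UMIs in members against 12, 20, 25 and 20 in Gzmk-negative cells, while Ifng itself was not called.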
